A study of Mus musculus with 6 samples.

Results

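Contractile genes are described here in epidermal keratinocytes, the cells that form the outer layer of the skin, from mice with and without the Mediator subunit gene Med1. The 10 genes (Acta2, Mylk, Tagln, Myl9, Cnn1, Tpm1, Tpm2, Mylpf, Myh11 and Actg2) were chosen by what they encode and with the KO against CON differences on these same arrays already known. All array probes that the platform annotation assigns to them were then taken. It assigned 15 probes to 9 of them, out of 25697 probes and 16593 named genes in all, and no probe to Myl9, a regulatory myosin light chain gene, for which no value is given. KO mice were 10 wk old, on a C57BL6 background, and carried MED1 fl/fl alleles with Cre recombinase driven by the keratin 14 promoter. CON mice carried the same floxed alleles on the same background at the same age, without Cre. The excision is therefore expected in cells that use that promoter and in cells descended from them. Each group held 3 arrays with cells from 2 mice, and it is not stated how the mice map onto the arrays. Errors and p-values here therefore measure only the spread between these arrays, which may be technical. Per the study CON skin was in the resting and KO skin in a growth-shifted hair cycle phase, so phase and genotype cannot be told apart.

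Contraction rests on actin filaments pulled by myosin. In smooth muscle, calcium with calmodulin activates myosin light chain kinase, the product of Mylk, which phosphorylates the regulatory light chain and starts the pull, while tropomyosins line the actin filament and calponin and transgelin bind it. In skin these proteins are best known from the arrector pili muscles, vessel walls, the sheath around the hair follicle and myofibroblasts. Keratinocytes use other actins and myosins, but also make several tropomyosins. Many of these genes are controlled by serum response factor (SRF), which binds the CArG box, a short element with an A- and T-rich core.

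Promoter sequence is shown for Acta2 and Mylpf, whose windows carry elements close to the CArG box. It is also shown for Tpm2, which had the largest change and whose window carries none. RefSeq promoter windows (GRCm38.p6, 250 bases before to 50 after the start site, 5′ to 3′ on the gene's strand) were held for 7 of the 10 genes. The 3 lie for Acta2 at chr19:34255324-34255623 (minus strand), for Mylpf at chr7:127211358-127211657 (plus strand) and for Tpm2 at chr4:43523505-43523804 (minus strand). Capitals mark CArG boxes in which at most 1 core base was not A or T.
Acta2: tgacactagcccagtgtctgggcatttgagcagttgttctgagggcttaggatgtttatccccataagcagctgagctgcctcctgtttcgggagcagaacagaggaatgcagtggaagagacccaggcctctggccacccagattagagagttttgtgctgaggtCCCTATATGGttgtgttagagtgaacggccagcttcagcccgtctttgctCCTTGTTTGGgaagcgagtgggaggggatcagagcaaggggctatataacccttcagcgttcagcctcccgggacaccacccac
Mylpf: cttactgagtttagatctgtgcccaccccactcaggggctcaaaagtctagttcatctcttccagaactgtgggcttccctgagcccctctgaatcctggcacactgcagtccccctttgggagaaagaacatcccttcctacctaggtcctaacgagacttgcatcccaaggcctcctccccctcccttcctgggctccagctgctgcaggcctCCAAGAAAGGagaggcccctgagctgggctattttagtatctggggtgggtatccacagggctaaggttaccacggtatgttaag
Tpm2: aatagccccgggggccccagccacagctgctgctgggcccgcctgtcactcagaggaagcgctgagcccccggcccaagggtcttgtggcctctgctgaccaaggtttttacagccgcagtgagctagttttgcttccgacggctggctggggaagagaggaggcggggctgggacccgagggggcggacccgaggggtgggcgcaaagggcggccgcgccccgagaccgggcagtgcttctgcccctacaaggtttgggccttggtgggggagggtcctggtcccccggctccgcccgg

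The Acta2 window held 2 such elements, CCCTATATGG and CCTTGTTTGG, which began 84 and 34 bases before the start site. Distances count from the start site given with each window, and where transcription begins in these cells was not measured. The Mylpf window held 1, CCAAGAAAGG, 35 bases before its start site, and the windows of Tpm1, Tpm2, Mylk and Cnn1 held none. Only the window held for each gene was searched, so other start sites of these genes were not covered. Both strands were searched. A CArG box with no such exception occurred in 1.63% of 32851 promoter windows, and one with at most 1 in 9.98%. Among the 7 genes Myl9 alone held an exact one, CCTAATAAGG. The MCAT element CATTCC, read by TEAD factors, occurred once each in the windows of Acta2, Mylk and Tpm1 and in 14.7% of all windows. These are matches of letters, and binding was not measured here.

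The arrays held between 9866 and 10636 detected probes each (38.4% to 41.4%), where detected means a detection p below 0.01 against the negative control beads of the same array. Levels are log2 values after background correction and quantile normalization, and changes are KO minus CON on that scale with their SE. Probes detected on at least 3 of the 6 arrays were tested across all genes with limma, with a threshold of 0.05 on the adjusted p. Med1 itself read 6.86 ± 0.21 in CON and 5.90 ± 0.21 in KO (SD, n = 3 each, change -0.96, or -0.47 on the authors' normalized values, adjusted p = 0.0018). Whether its probe lies in the excised exons was not checked here. All 10 keratinocyte markers were detected, Krt5 and Krt15 among them.

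The contractile genes fell into those read above background and those that were not. Acta2, Mylk, Tpm1, Tpm2 and Mylpf had at least 1 tested probe, 7 probes in all. Tagln, Cnn1, Myh11 and Actg2, which encode transgelin, calponin 1, the smooth muscle myosin heavy chain and the enteric smooth muscle actin, had 1 probe each and were detected on no array. All 7 tested probes were higher in mean in KO, 6 of them with every KO array above every CON array, and 5 were among the probes called higher. Over all 10386 tested probes 13.5% were called higher and 22.0% had every KO array above every CON array. Since this contrast was known when the genes were picked, these counts describe them, nothing is read from them, and no p is given for a member.

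**Figure D1:**
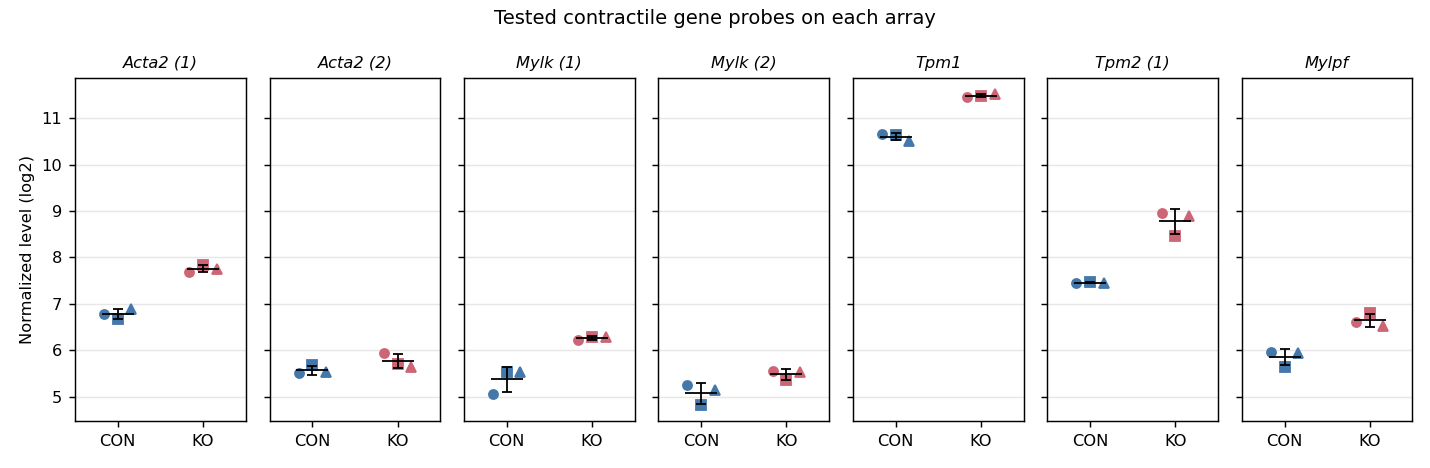
Normalized level (log2) of the 7 tested probes on each array, with CON in blue and KO in red, replicates 1 to 3 as circle, square and triangle, and the group mean with its SD in black. Levels on the shared axis cannot be compared between probes. The lowest KO array lay above the highest CON array by 0.79 for the first Acta2 probe and by 0.80 for Tpm1, and the groups overlapped for the second Acta2 probe.

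Acta2 encodes the alpha smooth muscle actin, the usual mark of smooth muscle and myofibroblasts. Its brightest probe (ILMN_2693895) had levels of 6.78, 6.68 and 6.89 on the CON arrays and 7.68, 7.83 and 7.75 on the KO arrays. Every KO array was thus above every CON array, and the means of 6.78 ± 0.11 and 7.75 ± 0.08 (SD, n = 3 each) differed by 0.97 ± 0.10, or 1.96-fold. The deposited intensities of this probe were low, 223, 188 and 190 in CON and 245, 321 and 327 in KO, where the lowest detected intensity of an array was 117 to 130. A second Acta2 probe (ILMN_2710354), with the same accession in the annotation, was detected on all 6 arrays but overlapped between groups. It read 5.51, 5.67 and 5.53 in CON and 5.94, 5.71 and 5.65 in KO, a change of 0.19 ± 0.11. Another probe was detected on 1 array, KO replicate 3, at a level of 5.31, and the last on none. The 4 Acta2 probes therefore did not give 1 answer. Where they lie on the transcript is not known here. The study reported the other direction in KO skin, where Acta2 and other myofibroblast markers were moderately lower with and without wounding. Those values came from skin, not from isolated keratinocytes, and were not examined here.

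Mylk encodes the kinase that switches smooth muscle myosin on, and a form of it also serves non-muscle cells. Its first probe (ILMN_1219471) read 5.06, 5.53 and 5.53 in CON and 6.22, 6.29 and 6.29 in KO, a change of 0.89 ± 0.14. CON replicate 1 was the lowest array and the 1 array that did not detect the probe, and the change was 0.73 without it. The second probe (ILMN_2662602) read 5.26, 4.82 and 5.15 in CON and 5.55, 5.35 and 5.54 in KO, a change of 0.41 ± 0.13. Only CON replicate 1 detected it in CON and all 3 arrays did in KO, so it entered the fit mainly through the group where it was higher. The normalized levels did not overlap between groups for either probe, with a gap of 0.69 for the first and 0.09 for the second. In the deposited intensities the second probe did overlap, with 114 to 135 in CON and 122 to 137 in KO.

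Tpm1 and Tpm2 encode tropomyosins, the rod proteins along the actin filament, which both muscle and non-muscle cells make in different splice forms. Tpm1 was far above background on every array, with intensities of 2006, 1618 and 1361 in CON and 2410, 3077 and 3389 in KO. Its levels were 10.66, 10.64 and 10.51 in CON and 11.46, 11.48 and 11.52 in KO, with no overlap, a change of 0.88 ± 0.09 or 1.84-fold. Among the 7 tested probes, this change moved least with the processing.

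Of the 3 Tpm2 probes, 1 was detected (ILMN_2487170), and it had the largest change among the 7 tested member probes. It read 7.46, 7.47 and 7.45 in CON and 8.96, 8.47 and 8.90 in KO, a change of 1.32 ± 0.14 or 2.50-fold. The CON arrays were tight and KO replicate 2 lay below the other KO arrays, and without it the change was 1.47. The other Tpm2 probes, with the same accession, had intensities between 99.4 and 113.6 and were detected on no array. The splice form each probe reads is not known here.

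Mylpf encodes the regulatory light chain of fast skeletal muscle myosin, the 1 member that does not belong to smooth muscle. Its probe (ILMN_2977331) read 5.96, 5.65 and 5.94 in CON and 6.61, 6.80 and 6.53 in KO. After normalization all KO arrays were above all CON arrays, and the change was 0.79 ± 0.12, or 1.73-fold. In the deposited intensities the groups overlapped, since KO replicate 1 (161) lay below CON replicate 1 (164.5).

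**Figure D2:**
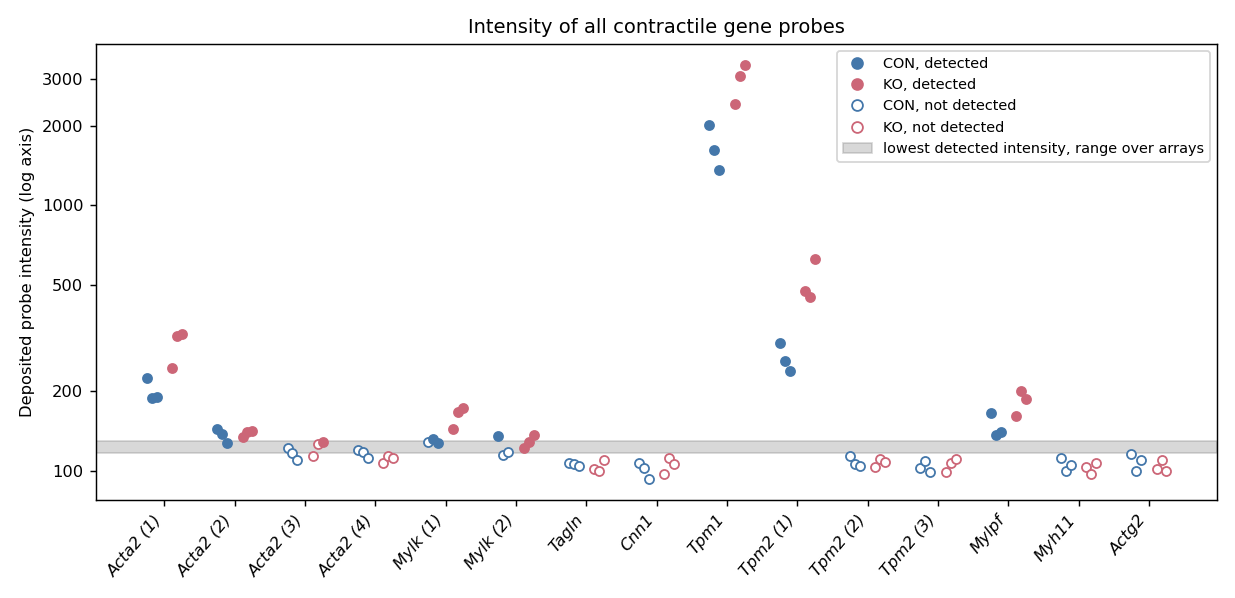
Deposited intensity (log axis) of all 15 member probes, left to right by gene and then by mean level, with CON in blue and KO in red. Filled points were detected on that array, open points were not, and the grey band spans the lowest detected intensity of each array, 117 to 130. Tagln, Cnn1, Myh11 and Actg2 have open points alone, and the first Acta2 and Tpm2 probes and Tpm1 lie above the band on all 6 arrays.

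The 7 probes detected on no array had intensities between 93.3 and 120.1, and the smallest detection p among them was 0.028. For Tagln the smallest was 0.11, for Myh11 0.14, for Cnn1 0.081 and for Actg2 0.055. No change is given for these 4 genes, which with Acta2 make up the set that most often identifies differentiated smooth muscle. A probe at background does not show that the transcript was absent. Actg1 and Rhoa, a cytoplasmic actin and a GTPase that cells use widely, were likewise detected on no array. Of the measured members, Mylk, Tpm1 and Tpm2 also serve non-muscle cells and Mylpf belongs to skeletal muscle, so Acta2, whose probes differed among themselves, is the 1 measured member specific to smooth muscle and related contractile cells.

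Other markers of muscle and of neighbouring cells were measured the same way. Of 19 further smooth muscle markers on the array, 14 were detected on no array, among them Des (desmin), Cald1 (caldesmon), Lmod1 (leiomodin) and Synpo2, and 4 were tested. Of 26 skeletal muscle markers, 23 were detected on no array, among them the skeletal actin Acta1, the creatine kinase Ckm, the light chain Myl1 and the fast troponins Tnnt3, Tnni2 and Tnnc2. The 2 tested there, Ryr1 and Eno3, had changes of -0.04 (interval -0.32 to 0.24) and 0.03 (interval -0.34 to 0.41). Of these, 0 passed with limma, at an unadjusted p below 0.05 or with the methods' t-test. With no filter all 26 were tested, and 1, the myoglobin gene Mb, was called higher, though it was detected on at most 1 array. The summed level of the skeletal list (linear scale, brightest probe of each gene) was 650 to 725 in CON and 698 to 719 in KO, ranges that overlapped. This sum takes in all 26 genes, 23 of them detected on no array. Background is therefore part of it, and nothing is read from the overlap.

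The summed level of the other smooth muscle markers was 3981 to 4613 in CON and 5018 to 5188 in KO. Such a sum gives bright probes the most weight and also takes in genes at background. The sums here and below are given as a description only. Smtn, which encodes the smooth muscle cytoskeletal protein smoothelin, was 9.51 ± 0.13 in CON and 10.38 ± 0.08 in KO, a rise of 1.83-fold (adjusted p = 0.00054). Fhl1, a LIM domain protein gene of skeletal and smooth muscle, fell 1.42-fold (adjusted p = 0.0076). Pdlim3 and Csrp1 did not pass, with changes of 0.16 (interval -0.04 to 0.37) and 0.12 (interval -0.14 to 0.38), but with the methods' t-test Pdlim3 was called higher as well, so that 2 genes were higher and 1 lower. Thus of 4 tested genes 1 rose and 1 fell, with a median change of 0.14. Over all 7461 tested genes 14.1% rose and 14.7% fell, and the median change was -0.0015.

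Markers of stromal cells, which can carry contractile proteins, mostly fell or did not pass. The shares over all tested genes were 14.1% higher and 14.7% lower. Of 10 pericyte markers 6 were detected on no array, Rgs5 and Pdgfrb among them, and of the 4 tested 0 rose and 2 fell, namely Cspg4 (1.72-fold lower) and Anpep (1.37-fold lower). At an unadjusted p below 0.05, 0 rose and 2 fell, and the methods' t-test called 0 higher and 1 lower. The Anpep call ended with median scaling, with the methods' t-test and without CON replicate 1, CON replicate 2 or KO replicate 2 (adjusted p up to 0.080). The pericyte list summed to 1025 to 1186 in CON and 920 to 979 in KO. Of 11 fibroblast markers 6 were detected on no array, Col1a1, Col1a2 and Pdgfra among them, and of the 5 tested Serpinf1 (2.46-fold), Dcn (2.35-fold), Sparc and Fbln1 fell and Thy1, which lymphocytes share, rose 1.45-fold. Which cells the falling pericyte and fibroblast markers came from was not tested. On the authors' normalized values Serpinf1 and Dcn were 1.51-fold lower each and Cspg4 1.33-fold. The calls of Sparc and Fbln1 ended with median scaling and with the methods' t-test, and that of Fbln1 also with no filter and with any 1 array left out except CON replicate 3 (adjusted p up to 0.15). The list summed to 1669 to 1836 in CON and 1792 to 1915 in KO, which overlapped. Endothelial markers had 2 tested genes, Egfl7 and Tek, with changes of 0.23 (interval -0.22 to 0.67) and 0.00 (interval -0.42 to 0.42), and Pecam1 and Cdh5 were detected on no array. Of the dermal papilla markers, Rspo3 was 3.87-fold lower in KO, where 1 of 3 arrays did not detect it (1.93-fold on the authors' normalized values), and Alpl did not pass, at 0.25 (interval -0.14 to 0.64), while Sox2 and Corin were detected on no array. The part of any of these cells in the members' values was not tested, and in such bulk RNA fewer cells of a type and less RNA per cell cannot be told apart.

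**Figure D3:**
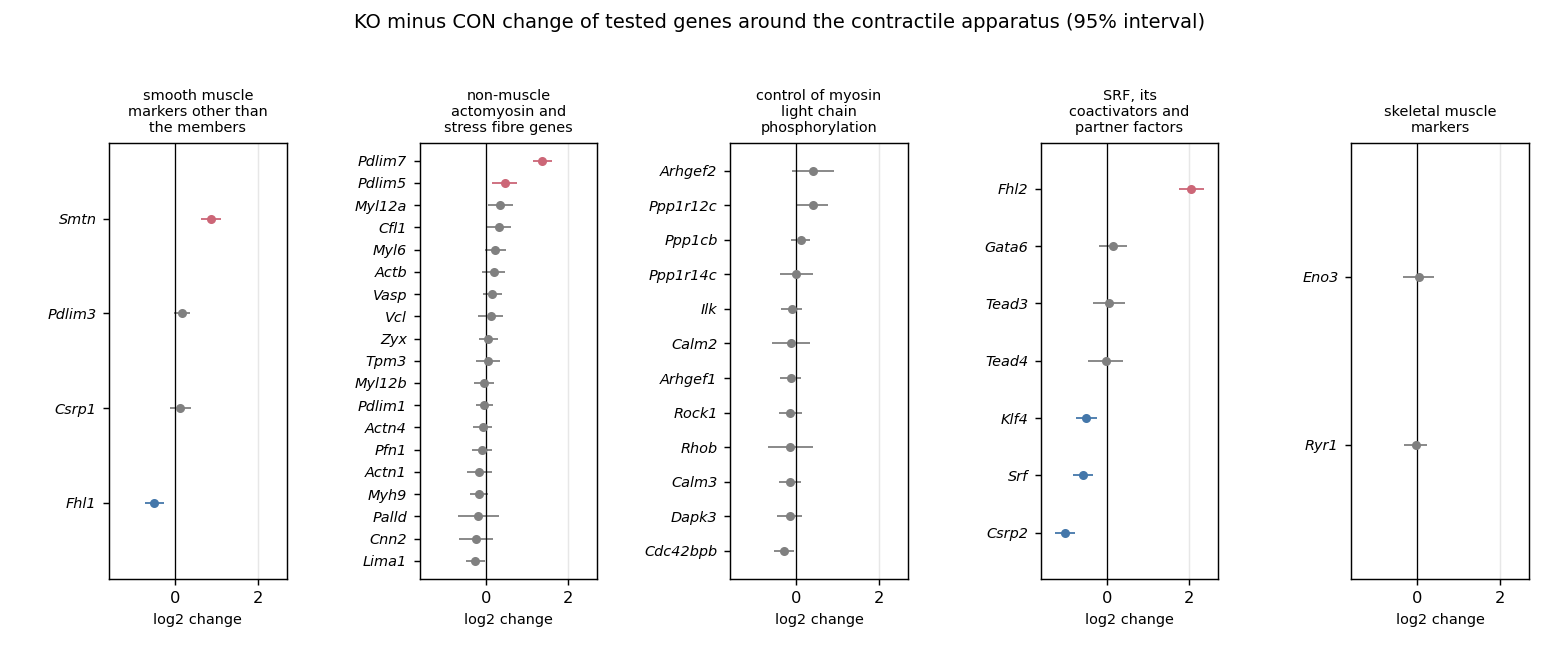
KO minus CON change (log2, points) with its interval (95%, bars) for the 44 tested genes of 5 lists around the contractile apparatus, in red where called higher, in blue where called lower and in grey where not called. Fhl2, Pdlim7 at 1.37 and Smtn at 0.87 lie highest and Csrp2 lowest, and the genes that control myosin light chain phosphorylation are all grey.

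Of 19 tested genes of the non-muscle actin and myosin machinery 2 rose and 0 fell with limma, with a median change of 0.05. Over all tested genes 14.1% rose and 14.7% fell. The counts were 4 and 1 at an unadjusted p below 0.05, and 1 and 0 with the methods' t-test. Pdlim7, which encodes the PDZ and LIM domain protein enigma that binds tropomyosin, rose from 6.97 ± 0.12 to 8.34 ± 0.06, 2.59-fold (adjusted p = 5.08e-05). Pdlim5, a related gene, rose 1.38-fold (adjusted p = 0.033). That call ended without CON replicate 3 or any 1 KO array, with median scaling, without background correction, on the authors' normalized values, with no filter and with the methods' t-test (adjusted p up to 0.14).

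Common actin and myosin genes did not pass the test, although without background correction and on the authors' normalized values Myl12a was called higher and Lima1, an actin-bundling protein gene, lower. The change was 0.20 (interval -0.09 to 0.48) for Actb, the beta actin gene, and -0.16 (-0.37 to 0.06) for Myh9, the main non-muscle myosin heavy chain. It was 0.35 (0.05 to 0.65) and -0.03 (-0.27 to 0.21) for the light chain genes Myl12a and Myl12b. Another tropomyosin gene, Tpm3, was 9.42 ± 0.18 in CON and 9.48 ± 0.13 in KO, a change of 0.05 (interval -0.23 to 0.34). The interval for Tpm3 ended below the change of either Tpm1 or Tpm2, but the difference between the tropomyosin genes was not tested, because Tpm1 and Tpm2 were picked with their changes known.

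Genes that set myosin light chain phosphorylation showed 0 calls in either direction among 12 tested with limma (1 higher and 1 lower at an unadjusted p below 0.05, and 0 with the methods' t-test). Their median change was -0.14. The shares over all tested genes were 14.1% higher and 14.7% lower. The change was 0.11 (interval -0.12 to 0.33) for Ppp1cb, the catalytic subunit of myosin phosphatase, and -0.15 (-0.41 to 0.12) for the calmodulin gene Calm3. The smallest adjusted p in the list, 0.067, was that of Cdc42bpb, a kinase gene, at -0.30. It was called lower without background correction, with offset 50 and on the authors' normalized values, and Ppp1r12c, a phosphatase targeting subunit gene, was called higher without CON replicate 3.

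Genes of SRF and its partners had calls in both directions with limma. Among the 7 that were tested, 1 was higher and 3 were lower in KO, with a median change of -0.03. Over all tested genes 14.1% were higher and 14.7% lower. Among the 4 detected on all 6 arrays, 0 were higher and 3 lower. Srf itself was 9.88 ± 0.13 in CON and 9.31 ± 0.09 in KO, 1.49-fold lower (adjusted p = 0.0052). Csrp2, a LIM protein gene of smooth muscle that partners SRF, was 2.01-fold lower (adjusted p = 0.00029), and Klf4, a factor that represses smooth muscle genes, fell 1.41-fold (adjusted p = 0.013). The Klf4 call ended with median scaling and with the methods' t-test (adjusted p up to 0.081). Fhl2, a LIM protein gene that binds SRF, was detected on no CON array and on all 3 KO arrays. It entered the fit only through the group where it was higher, so its call is a description and no p is given. After background correction its KO mean was 2.60-fold above the mean, over the CON arrays, of each array's lowest detected level. This figure depends on the processing. The KO minus CON change was 1.19 on the log2 scale with offset 50. On the authors' normalized values, which keep the background, the KO to CON ratio was 1.71. The coactivator genes Myocd, Mrtfa and Mrtfb were detected on no array.

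The size of the members' changes depended on how background was treated. On the authors' normalized values, which keep the background, the change was 0.62 for Acta2, 0.35 for Mylk, 0.37 for Mylpf and 1.01 for Tpm2 on the log2 scale, against 0.97, 0.89, 0.79 and 1.32 after background correction (first probe of each gene). For Tpm1 it was 0.85 against 0.88. Of these 5, Mylk and Mylpf, the dimmest, moved most and Tpm1, the brightest, least. All 7 tested probes stayed higher in KO under each processing tried. Actins, tropomyosins and myosin light chains are families of similar sequence, and whether these probes also bind relatives was not tested.

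**Figure D4:**
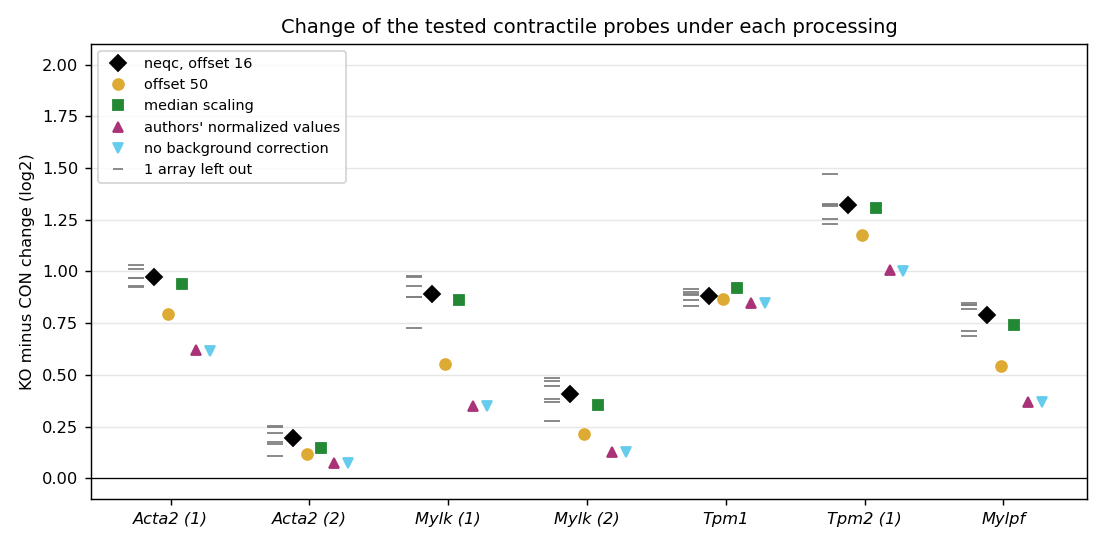
KO minus CON change (log2) of the 7 tested member probes under the processing used here (black diamonds), under 4 other ways of scaling or background treatment (coloured points) and with each array left out in turn (grey dashes). Tpm1 lies between 0.83 and 0.92 throughout, while the first Mylk probe goes from 0.35 without background correction to 0.98.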

How the data were processed

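Total RNA of keratinocytes, released with trypsin from separated epidermis, was labelled with biotin and hybridized to 1-colour Illumina MouseRef-8 v2.0 beadchips, 3 arrays for each genotype. The authors deposited probe intensity values on a linear scale from GenomeStudio (version 2011.1), not normalized, each with a detection p-value against negative control beads, and a second table of intensity values normalized in GenomeStudio, by an algorithm not given in the sources used here, which served as an alternative. No depth exists for arrays, and precision depends on how many there are.

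Background correction and quantile normalization used limma's neqc (version 3.58.1, R 4.3.3, offset 16, log2). The offset understates changes of dim probes. KO was compared with CON by lmFit and eBayes, two-sided, without covariates, over the 10386 probes with a detection p below 0.01 on at least 3 arrays, with Benjamini-Hochberg adjustment. The fit was tested on simulated data. Genes were named from the platform annotation (23978 probes with 1 symbol, 0 with several, 1719 unnamed here), updated by Entrez ID through RefSeq GRCm38.p6. A list gene counts by its tested probe with the highest mean.

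The members, lists and alternatives were chosen with earlier results of these data known. Named beside the members and Med1 were up to 4 called genes of each list with the smallest adjusted p, and the 3 genes most like Acta2. Genes at background, genes that did not pass and the called genes Fbln1 and Trp63 were named for completeness after their values were seen. Alternatives were no background correction, offset 50, median scaling, the authors' normalized values, other filters, the replicate number as a block, the methods' t-test and leaving out each array. The files give no slide or scan.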

Additional observations from a re-analysis of the deposited data

How the results depend on the processing

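All 7 tested member probes stayed higher in KO under the 4 other ways of scaling and background treatment and with each array left out. With 1 array left out the change ranged from 0.92 to 1.03 for the first Acta2 probe, 0.73 to 0.98 for the first Mylk probe, 0.83 to 0.91 for Tpm1, 1.23 to 1.47 for Tpm2 and 0.69 to 0.85 for Mylpf. Of 32 named genes called here, Med1 included and Trp63 left out, 23 kept their call under all alternatives that could be run for them. Another 9 lost their call under at least 1, and 0 changed direction. Fhl2, whose call is a description, is among the 23. Named genes without a call here are not in this count. Of those, Pdlim3, Myl12a, Lima1, Cdc42bpb, Ppp1r12c and Mb gained a call under at least 1 alternative. Over all tested probes 1397 were called higher and 1452 lower, 788 and 901 with median scaling, 952 and 949 with the methods' t-test, and 998 to 1260 and 1052 to 1272 with 1 array left out. In the contractile lists 4 of 44 tested genes were higher and 4 lower, 3 to 4 and 4 with 1 array left out. Fhl2 is 1 of the 4 higher genes, though it entered the fit only through the KO arrays. Over all tested genes 14.1% were higher and 14.7% lower. The higher count in these lists was 3 with median scaling and for probes detected on all 6 arrays. The lower count was 6 without background correction and on the authors' normalized values, 5 with offset 50, and 3 with median scaling and with the methods' t-test. In the marker lists 2 of 35 tested genes were higher (Thy1 and Cd3e) and 19 lower, with 1 to 2 and 16 to 18 when 1 array was left out. The count of 2 became 1 with median scaling, with the methods' t-test and with the replicate block, and 3 without background correction, with offset 50, on the authors' normalized values and for probes detected on all 6 arrays. The count of 19 became 14 with median scaling and with the methods' t-test. The arrays share only a number, and same-numbered CON and KO arrays did not deviate together (r -0.03, 0.07 and -0.05). With the block 1241 probes were higher and 1277 lower, and 1 of 3 CON arrays correlated best with the KO array of its own number. Cd3e and Trp63 were the named genes that lost their call with the block. Dim probes limit what can be read, since 8 of the 15 member probes did not pass the filter.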

Other observations

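Over the 6 arrays, the 3 genes other than the members whose levels followed the brightest Acta2 probe most closely were Pparg, a nuclear receptor gene of lipid-storing cells, Rgs4, a regulator of G protein signaling, and Endou, an endonuclease gene (Pearson r = 0.999 each, n = 6 arrays, out of 7456 genes compared). Both groups enter these correlations, so the step between CON and KO is part of them, and 837 genes (11.2%) had r above 0.9. Pparg rose by 2.42, Endou by 1.66 and Rgs4 by 0.82 on the log2 scale, against 0.97 for Acta2, and by 1.43, 0.92 and 0.32 on the authors' normalized values, against 0.62. Shared arrays underlie each of these correlations, and no p is given for them.

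Melanocyte, immune and Schwann cell markers give the other non-keratinocyte signals in these arrays. Of the melanocyte markers Dct was 2.26-fold, Pmel 1.86-fold and Mlana 1.57-fold lower in KO. The antigen presentation genes Cd74 and H2-Ab1 were 1.80-fold and 1.54-fold lower and the Langerhans cell gene Cd207 1.38-fold lower, while the T cell gene Cd3e was 1.28-fold higher. Mbp, a myelin protein gene that other cells also use, was 1.76-fold lower. On the authors' normalized values Pmel and Mlana were 1.37-fold and 1.20-fold lower. Of the 10 keratinocyte markers 5 were lower and 5 did not pass, where 14.7% of all tested genes were lower. Krt15, Krt5, Itgb4 and Col17a1 were 2.58-fold, 1.61-fold, 1.53-fold and 1.39-fold lower. Trp63 was 1.24-fold lower (adjusted p = 0.047 with limma). Its call ended with median scaling, no filter, the replicate block, the methods' t-test and with any 1 array left out. Krt10 changed by -0.03, and Krt14 read 14.73 with an SD of 0 in both groups. Quantile normalization gives probes of the same rank the same value on each array. No change of Krt14 could therefore appear, and nothing is read from its value or from its not passing. The calls of Col17a1 and Cd207 ended with median scaling, that of Mlana with the methods' t-test, and that of Cd3e with 1 array left out, except CON replicate 3. The part of these shifts in the contractile genes was not tested.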
